A study of Caenorhabditis elegans with 2 samples.

Results

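Among the ChIP-seq peaks of the homeodomain protein CEH-100 in Caenorhabditis elegans, 196 lay beside a tRNA gene, out of 1884 peaks on the 6 nuclear chromosomes (10.4%, 95% Wilson interval 9.10 to 11.9%). A peak was counted when its summit, the position of strongest signal in the authors' peak call, fell inside a gene annotated with the biotype tRNA or within 500 bp of one. The list searched was the authors' joint thresholded list, called on both replicates together, and not their conservative list. It holds 1911 peaks in all, of which 27 are mitochondrial. The smaller lists called on each replicate alone gave 106 peaks beside tRNA genes for replicate 1 and 123 for replicate 2. Sequence inside or within 500 bp of a tRNA gene makes up 0.571% of the nuclear genome.

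The measurement was ChIP-seq, in which DNA bound by a protein is pulled down with an antibody and sequenced, and there was 1 group of 2 biological replicates. Both came from strain RW12233, in which ceh-100 on chromosome II carries a TY1, EGFP and 3xFLAG tag inserted by CRISPR (st12233), and the antibody was against GFP. Whole young adults aged 64 hours were used, grown from synchronised larvae that had been starved at the L1 stage after bleaching. Sonication gave chromatin fragments between 200 and 800 bp long. The list gives each peak a signal, which is the enrichment value of the authors' peak caller and has no unit. The lists carry peaks and not reads, which leaves the sequencing depth unknown. No peak list from animals without the tag was used here, so the values describe where the peaks lie and not what the tag adds.

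tRNA genes encode the adaptors that carry amino acids to the ribosome, and are transcribed by RNA polymerase III. Their promoter lies inside the gene: the A box near the 5′ end and the B box near the 3′ end are bound by the factor TFIIIC, which brings TFIIIB and then the polymerase to the start, and transcription ends at a run of T just downstream. Worms carry many copies of each tRNA gene, dispersed over the chromosomes and often inside introns of protein-coding genes. CEH-100 belongs to the homeodomain family, many of whose members bind sites that contain TAATTA.

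The sequences below are tRNA genes at strong peaks, chosen because they show what such a target looks like and because identical copies carried peaks of different strength. They are the reference sequence of RefSeq's WBcel235 assembly, which corresponds to ce11, read 5′ to 3′ on the strand of the gene with 20 bases downstream. Capitals mark a pattern of letters for the A box (T, any base, GC, any 2 bases, AG, any 2 bases and GG) where it occurs. They also mark a pattern for the B box (GNTCNANNC). The A box pattern matched 18.3% of the 612 nuclear tRNA genes, so a gene without those capitals may still have an A box.
C27A2.t1 (Ile), chrII:5057427-5057520, minus strand: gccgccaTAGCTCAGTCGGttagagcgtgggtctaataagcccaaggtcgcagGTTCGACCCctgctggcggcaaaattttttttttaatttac
T21B4.t1 (Ile), chrII:12494741-12494834, plus strand: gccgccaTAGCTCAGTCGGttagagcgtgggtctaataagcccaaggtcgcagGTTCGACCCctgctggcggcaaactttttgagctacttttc
T23F1.t1 (Lys), chrV:15465086-15465178, plus strand: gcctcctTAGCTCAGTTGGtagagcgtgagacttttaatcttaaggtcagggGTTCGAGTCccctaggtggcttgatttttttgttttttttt
C33G3.t2 (Lys), chrX:14063926-14064018, minus strand: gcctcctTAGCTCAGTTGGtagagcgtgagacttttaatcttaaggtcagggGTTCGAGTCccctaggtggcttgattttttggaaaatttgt
C04A11.t1 (Leu), chrX:13665555-13665693, plus strand: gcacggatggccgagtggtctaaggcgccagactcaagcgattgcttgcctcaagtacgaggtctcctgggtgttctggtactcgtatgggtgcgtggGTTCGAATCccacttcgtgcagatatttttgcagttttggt

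The isoleucine genes C27A2.t1 and T21B4.t1 have the same sequence, as do 17 further genes, and 5 of these 19 carried a peak. The lysine genes T23F1.t1 and C33G3.t2 belong to a set of 14 identical genes, of which 7 carried a peak. The leucine gene C04A11.t1 is the single copy of its sequence.

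The next set shows the 50 bases upstream of identical genes with and without a peak, because the bases inside the gene cannot differ between them. Capitals mark the first 10 bases of the gene, and the assembly and direction are those given above.
Y65A5A.t2 (Ala, with a peak), chrIV:16399134-16399193, plus strand: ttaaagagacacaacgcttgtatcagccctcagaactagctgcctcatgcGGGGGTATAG
F34H10.t1 (Ala, with a peak), chrX:9637914-9637973, minus strand: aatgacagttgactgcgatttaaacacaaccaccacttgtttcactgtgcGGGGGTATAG
C56G3.t1 (Ala, no peak), chrX:7378846-7378905, minus strand: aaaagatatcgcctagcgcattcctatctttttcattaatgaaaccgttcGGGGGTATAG
T08A9.t1 (Ala, no peak), chrX:7323703-7323762, plus strand: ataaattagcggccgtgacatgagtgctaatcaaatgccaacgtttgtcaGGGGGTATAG
W09G10.t1 (His, with a peak), chrII:3521549-3521608, minus strand: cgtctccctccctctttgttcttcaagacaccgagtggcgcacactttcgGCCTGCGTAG
F28H6.t4 (His, no peak), chrX:14136640-14136699, plus strand: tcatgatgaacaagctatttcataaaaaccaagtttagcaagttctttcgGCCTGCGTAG

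Of the 15 identical alanine genes, 11 carried a peak, while of the 11 identical histidine genes 1 did. The peaks at Y65A5A.t2 and F34H10.t1 had signals of 163 and 144, and that at W09G10.t1 had a signal of 169.8. In the 50 bases shown, A and T made up 52% at Y65A5A.t2 and 58% at F34H10.t1, against 64% at C56G3.t1 and 58% at T08A9.t1. They made up 44% at W09G10.t1 and 68% at F28H6.t4. At F28H6.t5, an identical histidine gene with no peak that is not printed, the value was 52%.

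Of 612 nuclear tRNA genes, 220 had the summit of a thresholded peak inside or within 500 bp (35.9% called over all tRNA genes, interval 32.2 to 39.8%). These 220 genes share the 196 peaks, since one peak can lie near several genes. The replicates' own lists gave 122 such genes for replicate 1 and 146 for replicate 2. For protein-coding genes the share with a summit within 500 bp of a start was 6.1% (1219 of 19973). Among other genes for small RNAs, counted in the same way as tRNA genes, the share was 31% of 129 snRNA genes, whose products build the spliceosome, and 28.9% of 346 snoRNA genes, whose products guide the modification of other RNAs. It was 6.9% of 261 miRNA genes, 0.391% of 15363 piRNA genes, 5.4% of 7764 genes for other noncoding RNAs, 5.67% of 194 lincRNA genes and 2.49% of 2128 pseudogenes. The share at tRNA genes was 5.89 times that at protein-coding genes, with snRNA and snoRNA genes nearest to it.

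The annotation also holds tRNA pseudogenes, which resemble tRNA genes without being counted as such. Of 202 that lie over 1000 bp from any tRNA gene, 4 had a peak, which is 1.98% called (interval 0.773 to 4.98%). The B box letters GGTTCGA followed by any 2 bases and CC occur on either strand in 64.4% of these 202. Peaks were rarer at these pseudogenes than at tRNA genes, and the intervals of the shares do not meet. Repeated sequence around the pseudogenes is not given here, and neither its part nor that of the B box in this difference was tested. The authors' ranked list, which also holds weaker peaks under the threshold, gave a summit at 77.5% of tRNA genes (474 of 612) and at 26.3% of protein-coding genes.

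Most summits lay inside a tRNA gene or close to it. Of the 196 summits, 124 fell inside the nearest tRNA gene (63.3%, interval 56.3 to 69.7%), 53 lay upstream of its 5′ end (27.0%) and 19 downstream of its 3′ end (9.69%). Although the rule allowed 500 bp, 180 summits were inside or within 50 bp (91.8%) and 185 within 100 bp (94.4%). The median summit was 17.5 bp downstream of the 5′ end of the gene.

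**Figure D1:**
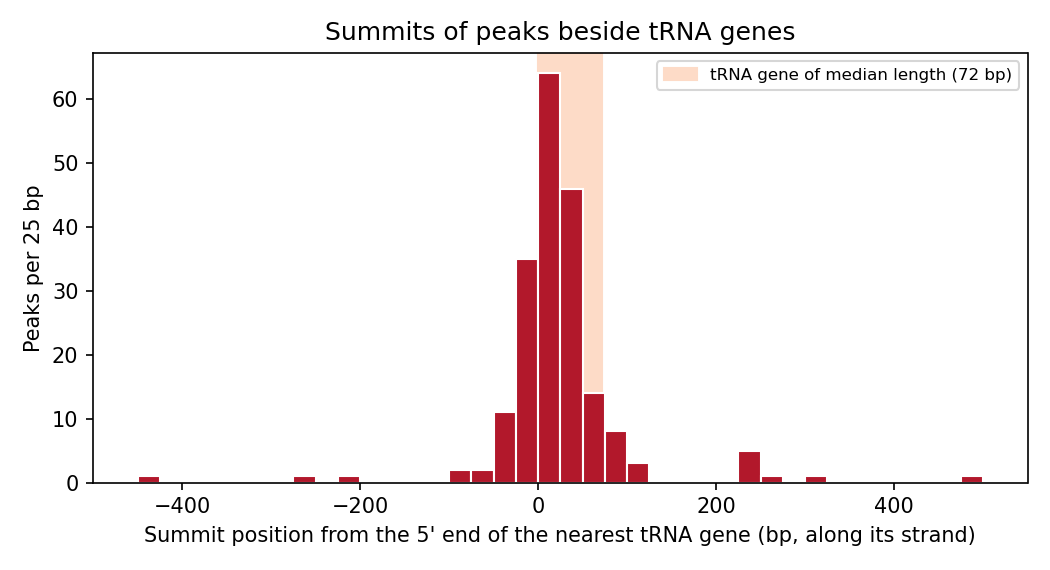
Position of the 196 summits in bp from the 5′ end of the nearest tRNA gene, along the strand of that gene, as the number of peaks in each 25 bp. The shaded band is a gene of the median length of 72 bp. The highest bar, 64 peaks, covers the first 25 bases of the gene, and 46 peaks fall in the next 25.

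Inside the gene the summits leaned to the 5′ side. The 124 inside summits had a median offset of 24 bp from the 5′ end (range 0 to 62 bp), which is 33.3% of the gene's length, and 83 of them fell in the 50% of the gene nearer the 5′ end. Within 50 bp outside the gene, 46 summits were upstream and 10 downstream. The plot of summit positions shows the same tilt: 35 summits lay in the 25 bp before the gene, and 64 in its first 25 bases. For 184 of the 196 peaks the interval had the list's most common width of 316 bp, against 1138 of 1688 other peaks. All of these 184 had the summit at the centre of the interval, which was not counted for the other peaks. The A box lies in the 5′ part of a tRNA gene and the B box in the 3′ part; with sheared fragments of at least 200 bp, a summit cannot assign signal to either.

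The limit of 500 bp mattered little to the number of members. The farthest peaks inside it were those at M01E5.t1, 269 bp from the gene with a signal of 20.2, at C16D9.t4, 405 bp away with a signal of 139.6, and at T04D3.t4, 436 bp away with a signal of 230.4. The nearest outside were at F15D3.t1 (575 bp, signal 110.9), C56G7.t1 (746 bp, signal 97.3) and ZK970.t3 (835 bp, signal 170.2). The last of these lies 223 bp from the start of vha-9, a subunit gene of the vacuolar proton pump. Of the summits outside the limit, 5 were at most 1000 bp from a tRNA gene.

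The peaks beside tRNA genes had signals in the middle of the list. Their lowest, median and highest signals were 5.23, 117.5 and 350.3, against 2.03, 126.5 and 6296 for the 1688 other nuclear peaks, a ratio of medians of 0.929. The quartiles were 99.2 and 138.3 beside tRNA genes and 96.4 and 207.8 elsewhere, so the ranges overlapped widely and differed most at the top. No peak beside a tRNA gene exceeded a signal of 500 (0 of 196, interval up to 1.92%), while 159 of 1688 other peaks did (9.42%). The best placed of them ranked 241st, with 240 other peaks above it.

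**Figure D2:**
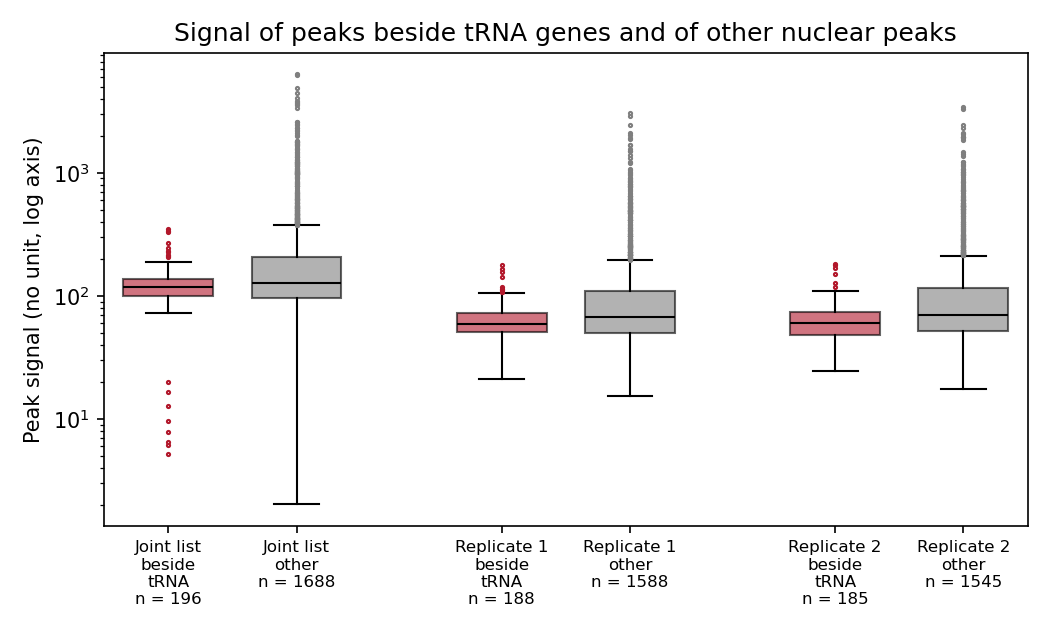
Signal of peaks beside tRNA genes (red) and other nuclear peaks (grey) in the joint list and in each replicate's ranked list, on a log axis. Boxes run between the quartiles with the median as a line, whiskers reach 1.5 times that range, and dots are peaks beyond. The boxes beside tRNA genes are narrow and lack the upper tail, with joint medians of 117.5 and 126.5.

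When the nuclear peaks were put in order of signal and divided into 5 groups of near equal size, the share beside tRNA genes was 1.33% in the strongest group (5 of 377). It was 9.81% in the next (37 peaks), 17.8% in the middle one (67 peaks), 15.6% in the one after (59 peaks) and 7.45% in the weakest (28 of 376). By position, the median signal was 117.2 for summits inside a tRNA gene, 121.2 for those upstream and 100.9 for those downstream.

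Among the 196, the strongest peak lay at chrIII:11066812-11067073, 14 bp upstream of the proline gene W09D6.t2 (WBGene00014553). The joint signal there was 350.3, replicate 1 gave 178.7 and replicate 2 gave 167.1. It sits between that gene and a second proline gene, W09D6.t1, on the opposite strand, in an intron of rsa-2, which encodes a regulator of spindle assembly. The isoleucine gene C27A2.t1, whose sequence is given above, had its summit 8 bp into the gene and a signal of 339.5, with 165.0 in replicate 1 and 177.9 in replicate 2. Its identical copy T21B4.t1, in an intron of the collagen gene col-85, had a signal of 207.8, with 114.9 in replicate 1 and 88.3 in replicate 2. Both replicates thus placed C27A2.t1 above its copy.

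On chromosome I the strongest peak lay 84 bp upstream of the arginine gene F47G6.t1, in an intron of spe-15, a myosin gene needed for sperm formation. It reached a joint signal of 330.7, or 155.9 in replicate 1 and 180.7 in replicate 2 taken alone. The lysine gene T23F1.t1 on chromosome V had a signal of 267.4, with 143.0 and 118.6 in replicates 1 and 2. Its identical copy C33G3.t2 on X had a signal of 244.2, with 93.8 and 151.5 in replicates 1 and 2, so the replicates placed these copies in opposite order. The alanine gene F15G9.t1, in an intron of the hemicentin gene him-4, had a signal of 228.7, with 117.2 in replicate 1 and 109.6 in replicate 2.

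The 15 strongest peaks were each thresholded in both replicates' own lists, 10 had the summit inside the tRNA gene, 7 lay in a host intron and 5 were on X. They covered 9 amino acids. The next of them were at the isoleucine gene F57F5.t1 (signal 213.3), 386 bp from the start of the guanylate cyclase gene gcy-33, and at the leucine gene C04A11.t1 (signal 209.3). Lower down came the threonine gene W02G9.t2 in the kelch-repeat gene kel-8 (188.5), the leucine gene W02H3.t1 (183.6), the glycine gene F10C1.t1 (181.9) and the alanine gene T07H6.t2 (181.4). On chromosome IV the highest signal was 179.4, at the leucine gene C43G2.t1. The glutamine gene T03E6.t1 had a signal of 190.1 and 81.8 in replicate 1, but no ranked peak of replicate 2 covered its summit.

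Several tryptophan tRNA genes are known from classical genetics as suppressor (sup) loci. The peak 8 bp upstream of sup-5, a tryptophan tRNA gene in which anticodon mutations suppress amber stop codons, had a signal of 131.8, with 54.7 in replicate 1 and 75.1 in replicate 2. Of the 7 tryptophan tRNA genes with a sup name, 2 had a peak, the other being sup-7 with a signal of 91.9. The genes sup-21, sup-24, sup-28, sup-29 and sup-33 had none. The sup genes other than sup-5 were added after their values were seen. The peak at sup-5 was the strongest of the 3 at tryptophan genes and lies in an intron of fli-1, the flightless gene. Its signal lay between the median and the upper quartile of the 196.

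The 8 weakest members stood apart from the rest. Their signals ran from 5.23 to 20.2, while the remaining 188 started at 72.2. Each lay 200 to 246 bp from the summit of another, stronger peak beside a tRNA gene with a signal between 90.2 and 228.7, and 7 of the 8 were downstream of the gene. The weakest, downstream of the cysteine gene C37A2.t1 in the cyclin E gene cye-1, had a signal of 5.23, and the main peak of that gene, 209 bp away, had 140.6. Signals under 50 also occurred at 133 other peaks, and 10 tRNA genes had several members.

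The replicates' own lists held these peaks less often than other peaks, which include far stronger ones. Of the 196, 76 overlapped a thresholded peak of both replicates (38.8%, interval 32.2 to 45.8%), against 848 of 1688 other peaks (50.2%, interval 47.9 to 52.6%), where 49% of all nuclear peaks were called in both. A further 28 overlapped a thresholded peak of replicate 1 only and 43 of replicate 2 only, and 49 overlapped none (25%), against 325 other peaks (19.3%). Among the 1425 other peaks within the members' range of signal, 42.3% were thresholded in both (interval 39.8 to 44.9%) and 22.1% in neither, and the interval for both overlaps that of the 196. In replicate 1 alone, 104 were thresholded (53.1%, against 61.1% of all nuclear peaks), and in replicate 2 alone 119 were (60.7%, against 68.1%). The conservative list held 161 of them with the same interval and summit (82.1%), which is near the 80.6% of all nuclear peaks. Members thresholded in both replicates had a median joint signal of 144.1, and those thresholded in neither had 95.5.

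Peaks under a replicate's own threshold were mostly still listed in its ranked list. A ranked peak covered the summit of 188 of the 196 in replicate 1 and of 185 in replicate 2. The median signal in replicate 1 was 58.8 beside tRNA genes and 67.0 elsewhere, and in replicate 2 it was 59.9 beside tRNA genes and 70.5 elsewhere. Among the 183 with a signal in both replicates, replicate 1 was higher at 98 and replicate 2 at 85, and 145 differed by at most 1.5 times.

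**Figure D3:**
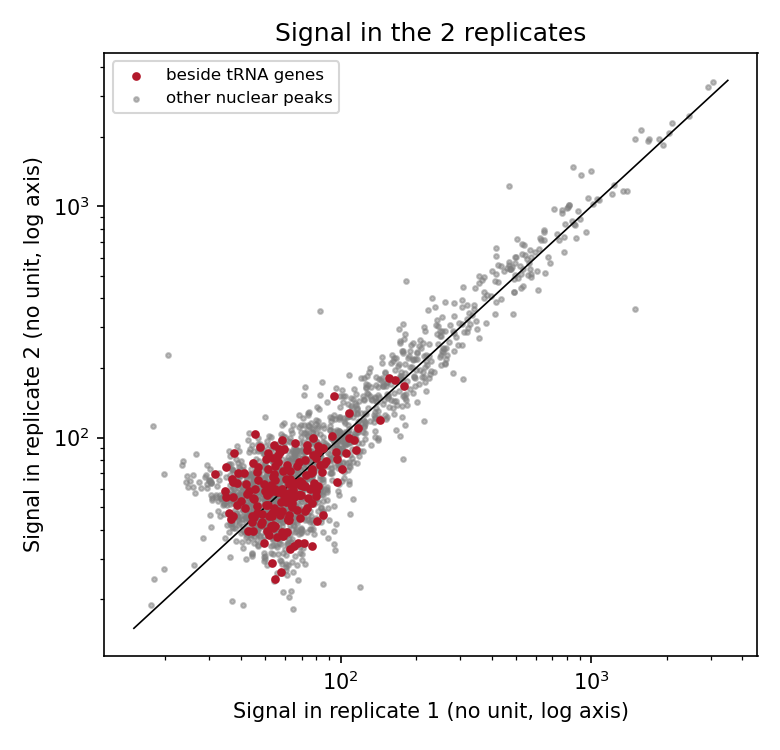
Signal in replicate 1 against replicate 2, on log axes, for the 183 peaks beside tRNA genes (red) and the 1519 other nuclear peaks (grey) with a ranked peak over the summit in both; the line marks equal signal. The red points form a compact cloud on the line at the low end of the grey range.

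Across peaks, which are not independent replicates, the 2 signals had a Spearman rho of 0.352 and a Pearson r of log2 signal of 0.472 beside tRNA genes. For the 1519 other peaks these were 0.744 and 0.901, and for the 1279 other peaks within the members' range of joint signal they were 0.574 and 0.612. The points share their libraries, and the members span a narrow range. The largest excess of replicate 1 was 2.27 times, at the glycine gene F56C3.t1 (77.3 in replicate 1 and 34.1 in replicate 2). The largest excess of replicate 2 was at the alanine gene ZK622.t1 (37.7 in replicate 1 and 85.8 in replicate 2, a ratio of replicate 1 over replicate 2 of 0.439). Single genes thus moved by over 2 times between replicates in either direction.

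All 20 standard amino acids were represented among the members' nearest tRNA genes, in unequal shares. Alanine genes had a peak most often, at 23 of 34 (67.6%, interval 50.8 to 80.9%), and this interval does not meet that of all 612 tRNA genes (32.2 to 39.8%). Histidine genes had a peak least often among amino acids with 10 genes or more, at 2 of 20 (10%, interval 2.79 to 30.1%), also apart from the interval of all tRNA genes. Every other such amino acid fell between 21.1% (tyrosine, 4 of 19) and 46.3% (glutamate, 19 of 41), with intervals that include the 35.9% of all tRNA genes. These shares count identical copies as separate genes, and the order changed when distinct sequences were counted instead. A sequence with many copies meets that second count more easily, so it cannot say how far the order depends on copies. By distinct sequence, counted when any copy had a peak, alanine stood at 8 of 13 (61.5%, interval 35.5 to 82.3%), below isoleucine at 5 of 8 and cysteine at 2 of 2. Histidine stood at 2 of 7 (28.6%), above lysine at 2 of 9 (22.2%), and its interval (8.22 to 64.1%) overlaps that of alanine. The selenocysteine gene and the 5 tRNA genes with no named amino acid had none; anticodons are not named in the annotation used.

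**Figure D4:**
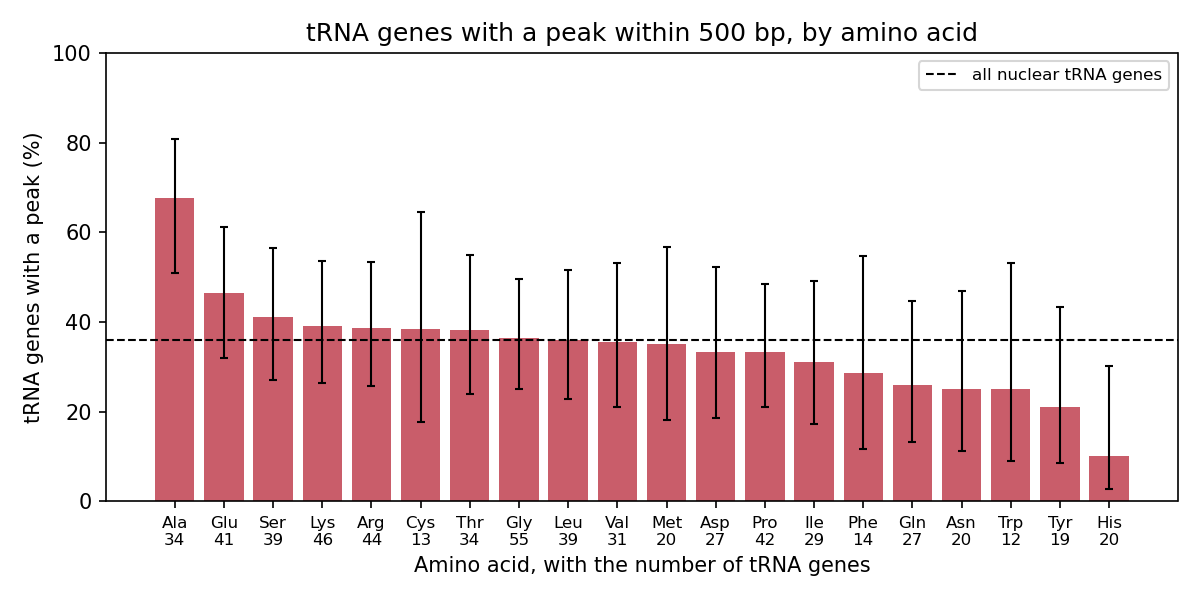
Share of tRNA genes with a peak within 500 bp, by amino acid, with the number of genes under each name, for amino acids with at least 10 genes. Bars are percentages with 95% Wilson intervals and the dashed line is the 35.9% of all nuclear tRNA genes. Alanine stands at 67.6% and histidine at 10%.

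Signal could be compared between amino acids only at genes with a peak, all of which passed the authors' threshold. The median signal of the peak at alanine genes was 127.6 (range 73.5 to 228.7), against 119.4 over all tRNA genes with a peak. Lysine genes had a median of 132.7 with 18 of 46 genes called, and glutamate genes a median of 108.4 with 19 of 41. The 2 histidine genes with a peak had signals of 169.8 and 108.3, the first of them above the alanine median.

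Genes of identical sequence often differed in whether they had a peak. The 612 genes comprise 200 distinct sequences, and 57 sequences occur in several copies. Of these 57, 44 had copies with and copies without a peak, 4 had a peak at every copy and 9 at none. The commonest sequence, a glycine gene in 29 copies, had a peak at 13, and a lysine gene in 25 copies had one at 11. Genes with 10 or more identical copies had a peak at 40.4% (128 of 317), those with 2 to 9 copies at 36.8% (56 of 152) and single-copy genes at 25.2% (36 of 143, interval 18.8 to 32.9%). How the aligner placed reads among identical copies is not recorded in the sources used here, and its part in these shares was not tested.

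Repeated sequence around the gene showed no steady relation to the call. Where under 10% of the 31-base words in the gene and 150 bp on either side occur elsewhere in the genome, 19 of 78 genes had a peak (24.4%, interval 16.2 to 34.9%). Between 10 and 25% it was 184 of 474 (38.8%, interval 34.5 to 43.3%), and above 25% it was 17 of 60 (28.3%, interval 18.5 to 40.8%). Neighbouring intervals overlap, and the median share of repeated words was 16.2% at tRNA genes with a peak and 15.7% at those without. The median share of repeated words around the summits was 20.3% beside tRNA genes and 0 at other peaks.

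The internal promoter letters were found about as often in genes with a peak as in genes without. The B box letters GGTTCGA, any 2 bases and CC, on the strand of the gene, occurred in 145 of 220 genes with a peak (65.9%) and 249 of 392 without (63.5%). The A box letters TGGC, any 2 bases, AGT, any base and G occurred in 25 genes with a peak (11.4%) and 35 without (8.93%). A run of TTTT within 20 bp downstream was present at 217 genes with a peak (98.6%) and 385 without (98.2%). The intervals overlapped for all 3 features. With the wider letters GNTCNANNC, every one of the 220 genes with a peak and 383 of the 392 without (97.7%) had a B box. With the A box letters marked in the sequences above, which are not a superset of the first, 17.3% of genes with a peak and 18.9% without had a match. C04A11.t1, for instance, matches the first letters and not the second. The 2 sets of A box letters matched 9.80% and 18.3% of all 612 tRNA genes. They therefore compare matches to strict letters and not the presence of an A box.

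For scale, windows of 300 bp at 29784 protein-coding starts, 250 bp before to 50 bp after, were searched on both strands. The B box letters that begin with GGTTCGA occurred in 0.185% of them and the A box letters that begin with TGGC in 0.416%, and the letters marked in the sequences above occurred in 23.7% for the B box and 1.29% for the A box. Around summits, the B box letters that begin with GGTTCGA were present within 150 bp on either strand at 122 of the 196 peaks (62.2%), which the choice by tRNA gene brings with it, and at 27 of 1688 other peaks (1.60%). The homeodomain letters TAATTA lay within 50 bp of the summit at 2 of the 196 peaks (1.02%, interval 0.280 to 3.64%). They did so at 34 other peaks (2.01%, interval 1.44 to 2.80%), with 1.91% over all nuclear peaks. These intervals overlap, and no rate for windows of the same base composition was computed.

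Base composition upstream of the gene differed between tRNA genes with and without a peak. In the 50 bp upstream, A and T made up a median of 55% at genes with a peak and 60% at genes without. Genes with under 50% A and T had a peak at 43.2% (51 of 118) and those with 50 to under 60% at 47.1% (106 of 225). The share was 26.8% from 60 to under 70% (53 of 198) and 14.1% at 70% or more (10 of 71, interval 7.83 to 24.0%). The interval of the last class lies below those of both classes under 60%.

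**Figure D5:**
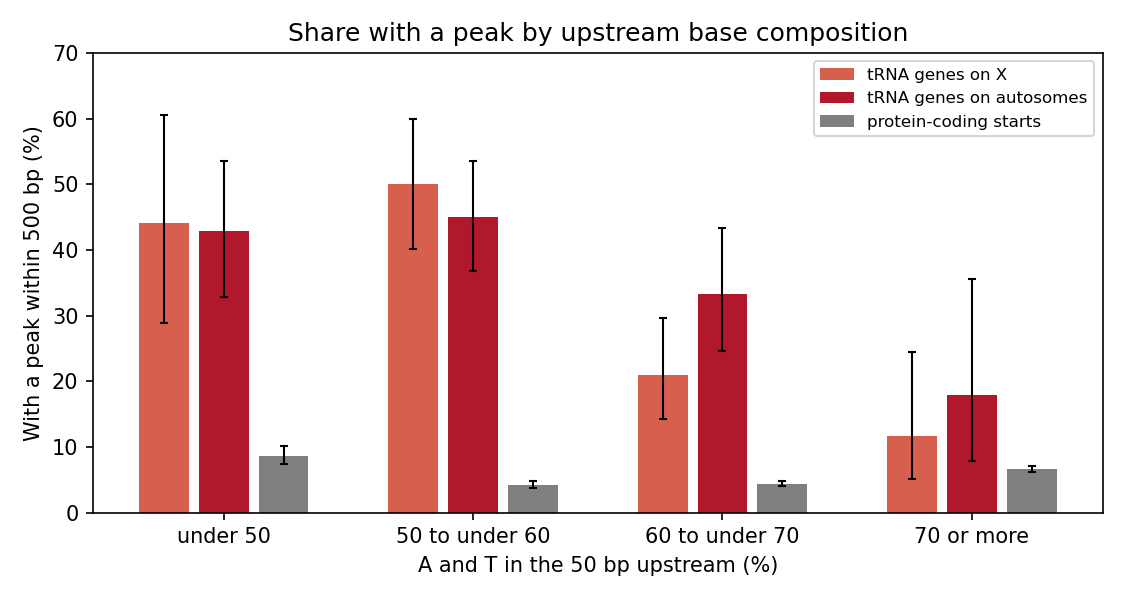
Share with a peak within 500 bp by the percentage of A and T in the 50 bp upstream, for tRNA genes on X (light red), tRNA genes on the autosomes (dark red) and protein-coding starts (grey), with 95% Wilson intervals. From under 50% to 70% or more the X genes stand at 44.1, 50, 21.0 and 11.6%, the autosomal genes at 42.9, 45.0, 33.3 and 17.9%, and the protein-coding starts between 4.22 and 8.66%.

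On X the 4 shares, from the lowest A and T content to the highest, were 44.1, 50, 21.0 and 11.6%, and on the autosomes they were 42.9, 45.0, 33.3 and 17.9%. Protein-coding starts had 8.66, 4.22, 4.41 and 6.65% in the same order, highest in the first class and higher in the last than in the middle ones. The difference between these patterns was not tested. On chromosome II, with 4 to 22 genes a class, the shares were 56.3, 68.2, 66.7 and 25%, so the third class was not lower there. Within the class of 70% or more, 1 of 35 tRNA genes with no other within 1000 bp had a peak (2.86%), against 9 of 36 with a neighbour (25%). The gene itself had a median of 41.7% A and T in both sets, and the 50 bp downstream had 74% in both. From 51 to 100 bp upstream the medians were 56% at genes with a peak and 62% without, and between 200 and 500 bp upstream they were 65.8% with and 64% without. The part of base composition in the calls was not tested, and the measure was chosen after the data were seen.

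The X chromosome had few peaks other than those beside tRNA genes. There they were 76 of 155 nuclear peaks (49.03%, interval 41.3 to 56.8%), against 5.03 to 9.74% of the peaks on each autosome. The other peaks on X numbered 79 of 1688 (4.68%). X holds 276 of the 612 tRNA genes (45.1%) and 42.6% of the sequence within reach of a tRNA gene. Per gene the share on X was the lowest of the 6 chromosomes: 89 of 276 tRNA genes had a peak (32.2%, interval 27.0 to 38.0%), against 131 of 336 on the autosomes (39.0%, interval 33.9 to 44.3%), and these intervals overlap. On X the median signal of the 76 was 114.4 and that of the 79 other peaks 105.5.

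Chromosome II had the highest rate per gene. There 35 of 57 tRNA genes had a peak (61.4%, interval 48.4 to 72.9%), while I, III, IV and V ranged from 33.3 to 35.9%. Outside host introns the share on II was 22 of 27 (81.5%), and inside them 13 of 30 (43.3%). Alanine genes had a peak at 7 of 8 on II and 16 of 26 elsewhere, and without them the share on II was 28 of 49 (57.1%, interval 43.3 to 69.98%). On II the median A and T content upstream was 54%, as on III and IV.

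tRNA genes inside introns of other genes had a peak about as often as those elsewhere. Of the 196, 97 had their nearest tRNA gene wholly within an intron of a protein-coding gene (49.5%, interval 42.6 to 56.4%), in 89 host genes, against 284 of all 612 tRNA genes (46.4%). Genes within introns had a peak at 35.9% (102 of 284) and the others at 36.0% (118 of 328). By strand, tRNA genes that run against their host had a peak at 42.6% (52 of 122, interval 34.2 to 51.5%) and those that run with it at 30.9% (50 of 162, interval 24.3 to 38.4%), and these intervals overlap. There were 8 host genes with 2 members each, and in 3 of them, among these the potassium channel gene unc-58, both peaks had a signal above 50. In the other 5, which include him-4, cye-1, the tyramine receptor gene ser-2 and the nuclear hormone receptor gene nhr-17, 1 of the 2 was among the 8 weakest members.

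Most of these peaks were away from the starts of protein-coding genes. A start lay within 500 bp of 42 summits (21.4%, interval 16.3 to 27.7%), against 1003 of 1688 other peaks (59.4%), with 55.5% over all nuclear peaks. The median distance to the nearest start was 1355.5 bp beside tRNA genes and 332 bp elsewhere. Over 2000 bp from any start lay 73 peaks beside tRNA genes (37.2%) and 239 others (14.2%). The 42 near a start had a median signal of 117.5 and the other 154 had 117.2. Among those 42, 24 summits were upstream of the start (57.1%), against 813 of the 1003 other peaks (81.1%).

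Named examples near a start include the peak at the aspartate gene F38G1.t2, 147 bp from the start of egl-17, which encodes a fibroblast growth factor that guides migrating muscle precursors. The joint signal there was 161.4, replicate 1 gave 65.7 and replicate 2 gave 95.2. The peak at C43G2.t1 lay 347 bp from the start of try-3, a trypsin-like protease gene. Within 500 bp of an snRNA gene lay 2 members (1.02%), against 2.61% of other peaks, and of an snoRNA gene 1 member (0.510%), against 6.40%. Within 500 bp of a miRNA gene lay 1 member, against 0.770% of other peaks. For piRNA genes the share was higher among the members, at 9 of 196 (4.59%, interval 2.43 to 8.50%), against 34 other peaks (2.01%, interval 1.44 to 2.80%), and these intervals overlap.

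Grouped tRNA genes were also compared with isolated ones. With clusters joined over gaps of up to 1000 bp, the 376 isolated genes had a peak at 36.7% (138 genes), pairs at 41.0% (64 of 156 genes) and groups of 3 at 21.4% (9 of 42). A summit near 1 gene of a group can also call its neighbour: the 64 paired genes shared 40 peaks, while the 138 isolated genes had 145. The largest clusters were all on X. The cluster F22F1 has 6 genes for serine, aspartate, methionine and isoleucine, and 1 peak of signal 89.99 lay near 3 of them. The 6 histidine genes of F28H6, printed in part above, had no peak, nor had the 5 arginine and cysteine genes of K01A12. The 5 glutamine genes of H08J11, in an intron of the junction gene ajm-1, had 1 peak of signal 110.8 near 3 genes.

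Most peaks could be tied to a single gene. There was 1 tRNA gene within 500 bp of 164 summits, 2 of 30 summits and 3 of 2 summits. Of the 30 summits near 2 genes, 15 lay near a divergent pair, 9 near a tandem pair and 6 near a convergent pair. At 21 of them both genes were for the same amino acid. These counts are of summits, and the pair F15G9.t1 and F15G9.t2 entered them with 2 summits. In such pairs the fragment lengths do not allow the signal to be divided between the genes. The median signal was 117.1 with 1 gene near the summit and 123.4 with 2.

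Each replicate alone gave fewer tRNA genes with a peak. The 122 genes of replicate 1 were 19.9% of 612 and the 146 of replicate 2 were 23.9%, with 86 genes in both. Of the 220 in the joint list, 54 were in neither replicate's own list, while 16 genes were in a replicate's list and not in the joint one. The share of nuclear peaks that lay beside tRNA genes was 9.09% in replicate 1's list, 9.23% in replicate 2's and 10.3% in the conservative list.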

How the data were processed

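The authors' peak lists on ce11 give a signal per peak, the enrichment value of their peak caller, which is not scaled between lists. The deposited ranked lists also give the authors' −log10 of the global irreproducible discovery rate (IDR), limited to 5. Per the deposited text lists, the joint thresholded list derives from both replicates' alignments and 2 further inputs whose content is not described there. Which aligner and caller made them is not given in the sources used here. A further 4 columns of per-replicate values in the joint ranked lists were not used; replicate signals come from each replicate's own ranked list, as the strongest ranked peak that covers the summit.

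Summits were placed against Ensembl release 115 genes on WBcel235, with amino acid names from RefSeq, which matched all 612 nuclear tRNA genes by coordinates and names none for 5. A host is a protein-coding gene with the tRNA gene inside an intron and in no exon. The 95% Wilson intervals of shares cover counting error alone, and neighbouring or identical genes are not independent. Placement and gene calls were tested on simulated data. Python 3.11.15, numpy 2.4.6, pandas 2.3.3 and scipy 1.17.1 were used.

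The members and lists were chosen with earlier results of these data known. Peaks named are the 15 of highest signal, the highest per chromosome, amino acid and host strand, the 5 lowest, those with most tRNA genes, the replicate extremes, the limits of the window and the largest clusters. With 1 group there was no test between conditions. Alternatives covered the peak list, threshold, window, overlap, host and motif letters; base composition, repeats and further motif letters were added after the data were seen.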

Additional observations from a re-analysis of the deposited data

Results flagged for a closer look

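Signal was also present in data outside the main measurement. On the mitochondrial genome, which was left out of the nuclear counts, 19 of 27 peaks lay inside or within 500 bp of one of the 22 mitochondrial tRNA genes. The 27 had signals from 3.27 to 4054, with a median of 644.6, against the nuclear members' highest of 350.3. Of the mitochondrial sequence, 68.2% lies inside or within 500 bp of a tRNA gene.

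Below the authors' threshold, the joint ranked list held 19804 nuclear peaks, of which 285 lay beside a tRNA gene. Through them 254 tRNA genes had a ranked summit and no thresholded one, which left 138 with none. The mitochondrial peaks entered none of the nuclear counts. The ranked peaks under the threshold entered the shares of tRNA and protein-coding genes with a ranked summit given above.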

How the results depend on the processing

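Of 116 alternative values for 11 results, 87 stayed within the spread used for each and 29 moved. Values were labelled only in these ways, so the counts do not test for reversal. The spread differed between results. For the ratio of median signal it was the standard deviation over the replicates, 0.000686, so 0.928 against 0.929 counted as moved. For the number of peaks it was wider, and 174 in the conservative list against 196 counted as within it. The number of peaks beside tRNA genes was 106 to 123 from 1 replicate's own list and 114 at a global IDR of at most 0.001. The share of tRNA genes with a peak was 19.9 to 23.9% from 1 replicate, 20.8% at that IDR, 31.7% in the conservative list, 40.0% with a window of 1000 bp, 31.9% with 100 bp, 29.7% without windows of over 25% repeated words and 42% by distinct sequence. The ratio of median signal, 0.929, stayed under 1 throughout: 0.781 to 0.782 from 1 replicate, 0.770 at the stricter IDR, 0.885 in the conservative list, 0.928 with windows of 250 or 1000 bp or with interval overlap, 0.933 with 100 bp, 0.927 with 1 peak per interval, 0.910 with left-out ranked peaks put back, 0.879 without signals under 50, 0.949 without repeated windows and 0.936 without peaks beside other small RNA genes. Summits inside a gene were 60.4 to 74.0% from 1 replicate. Thresholded in both replicates were 59.3 to 69.8% of those from 1 replicate's list and 64.9% at the stricter IDR; these lists are smaller and hold only peaks thresholded in that replicate or the strongest ones. The A box share became 39.5% with the letters TGGC. No paired analysis was possible because there is a single group of 2 replicates. Depth is unknown, and no peak list without the tag was used, so neither sequencing depth nor the background of the antibody could be set beside these counts.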
